A study of Drosophila melanogaster with 2 samples.

Results

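The NK homeobox cluster of Drosophila melanogaster comprises tin, bap, lbl, lbe, C15 and slou, which lie in this order over 178 kb of chromosome arm 3R. These 6 genes, of 13945 protein-coding genes on the chromosome arms, were examined for binding of Lbe, itself the product of a cluster gene. The chromatin immunoprecipitation and sequencing (ChIP-seq) libraries came from whole embryos of mixed sex, 0 to 24 h old, of the transgenic strain lbe-GFP, described as an insertion targeting lbe, whose Lbe protein carries eGFP at its C-terminus. The antibody was against GFP, although a label field for the antibody names lbe itself. There was 1 group of 2 biological replicates, each from its own embryo sample, and no second genotype, treatment or time, so no difference between conditions could be tested and no p-value is given. The labels do not say whether the strain keeps its untagged lbe copies. In whole embryos, strong binding in few cells and weak binding in many cannot be told apart.

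Regions were taken from the dm6 lists that the authors deposited, namely 4782 peaks past the irreproducible discovery rate threshold (IDR peaks), 29999 regions called on both replicates pooled, 29999 called on replicate 1 and 29999 called on replicate 2. The last 3 lists hold background regions as well as peaks. A region was counted for a gene when its summit lay in the gene body or within 10 kb of it, and regions are described by rank, with rank 1 for the highest signal in that list. Signal is the authors' value per region. Every IDR peak counted here had the same summit and signal in the pooled list. Signal is not comparable between the replicate lists, or between them and the other lists. Read depth is unknown, since the lists give no counts.

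NK cluster genes encode homeodomain transcription factors, which read short DNA words with a TAAT core, and several of them direct the subdivision of the mesoderm. tin is required for the heart and the dorsal mesoderm, bap for the visceral mesoderm, slou for the identity of a subset of body wall muscles, and lbe and lbl for particular heart and muscle cells. C15, also called clawless, acts in the patterning of the leg tip. lbe and lbl are neighbouring paralogues.

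The bases around 6 summits are printed because they carry the main results: the strongest peak of the cluster at tin, the 3 peaks of the ladybird pair, and the regions upstream of C15 on which the replicates differ most. Each run is 201 bases centred on the summit, on the plus strand of the release 6 genome (RefSeq), with TAAT and GAGAGA on either strand in capitals (so ATTA and TCTCTC are also marked).
tin promoter, chr3R:21378651-21378851: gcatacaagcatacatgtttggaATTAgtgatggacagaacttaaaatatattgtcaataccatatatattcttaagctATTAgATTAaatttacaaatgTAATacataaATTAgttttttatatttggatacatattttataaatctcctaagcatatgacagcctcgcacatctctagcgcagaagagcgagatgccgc
lbl promoter, chr3R:21434306-21434506: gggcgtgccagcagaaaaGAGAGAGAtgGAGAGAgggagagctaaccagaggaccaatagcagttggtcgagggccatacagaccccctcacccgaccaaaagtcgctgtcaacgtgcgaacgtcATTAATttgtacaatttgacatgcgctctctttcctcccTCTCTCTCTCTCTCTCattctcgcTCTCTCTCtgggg
lbl intron, chr3R:21419977-21420177: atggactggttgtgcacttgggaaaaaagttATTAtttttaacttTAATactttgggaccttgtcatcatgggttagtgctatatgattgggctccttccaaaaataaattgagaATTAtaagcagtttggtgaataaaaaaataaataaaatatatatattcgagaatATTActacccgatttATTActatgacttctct
lbe upstream, chr3R:21452261-21452461: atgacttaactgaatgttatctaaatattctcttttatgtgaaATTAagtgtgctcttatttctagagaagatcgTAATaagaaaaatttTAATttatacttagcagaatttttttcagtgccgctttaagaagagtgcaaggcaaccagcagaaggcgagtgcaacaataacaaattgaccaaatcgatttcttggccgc
C15 upstream, chr3R:21493607-21493807: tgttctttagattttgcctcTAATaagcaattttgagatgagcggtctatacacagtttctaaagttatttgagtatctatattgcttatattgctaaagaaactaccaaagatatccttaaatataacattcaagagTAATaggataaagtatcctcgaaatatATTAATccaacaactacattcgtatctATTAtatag
C15 promoter, replicate 2 alone, chr3R:21499611-21499811: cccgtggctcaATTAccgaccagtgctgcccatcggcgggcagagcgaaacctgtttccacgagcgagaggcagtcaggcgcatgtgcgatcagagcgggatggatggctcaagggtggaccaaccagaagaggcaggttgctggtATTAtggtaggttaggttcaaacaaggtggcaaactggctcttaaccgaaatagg

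Lbe-GFP peaks were spread unevenly over the cluster. The windows of tin, lbl, lbe and C15 held 9 IDR peaks between them, and those of bap and slou held 0. A window with at least 1 IDR peak is common in this genome, at 59.9% of protein-coding genes, so 4 of 6 is near the background. The same 4 genes had pooled regions (background 82.8% of genes) and replicate 2 regions (84.6%), and slou was added in the replicate 1 list alone (85.9%). In all, 22 pooled, 30 replicate 1 and 22 replicate 2 regions lay in the windows. Per 10 kb of window the members had a median of 0.531 IDR peaks, against 0.436 over all protein-coding genes. The order turned for the longer lists, with 0.906 against 2.55 for the pooled list, 1.76 against 2.78 for replicate 1 and 1.33 against 2.5 for replicate 2.

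**Figure D1:**
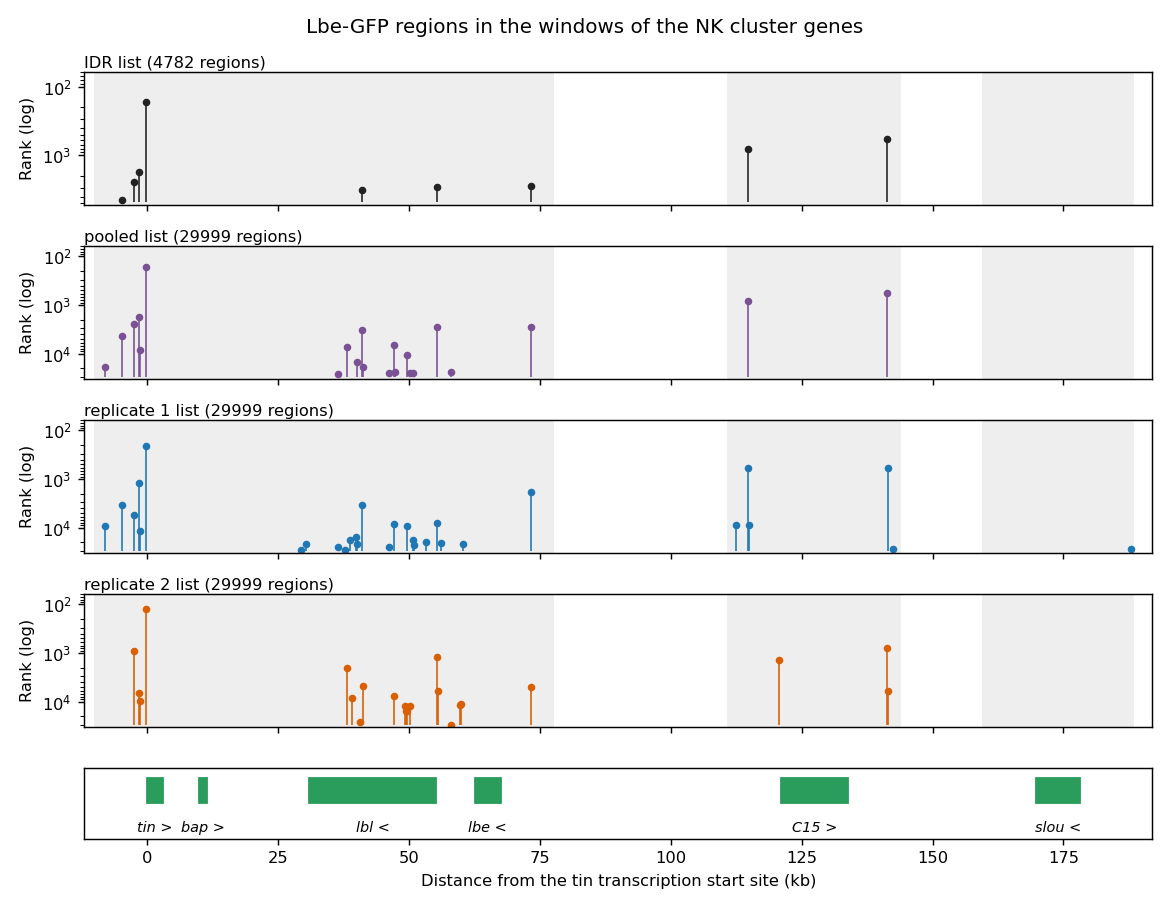
Summits in the windows of the 6 genes by distance from the tin start site in kb (x axis), with 1 panel per list and the rank of each region on a log axis, strongest at the top. Grey marks the windows and green boxes the genes, with > and < for the strand; the tallest stem in each panel is the tin promoter, and the bodies of tin, bap, lbe, C15 and slou hold no summit.

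Of the 6 gene bodies, that of lbl alone held summits. No list had a summit inside tin, bap, lbe, C15 or slou, a state shared by 51.9% of all protein-coding genes. The body of lbl, which at 24155 bp is the longest of the 6, held 1 IDR peak, 11 pooled regions, 12 replicate 1 regions and 9 replicate 2 regions. Upstream of their genes lay 4 IDR peaks for tin and 1 each for lbl, lbe and C15.

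**Figure D2:**
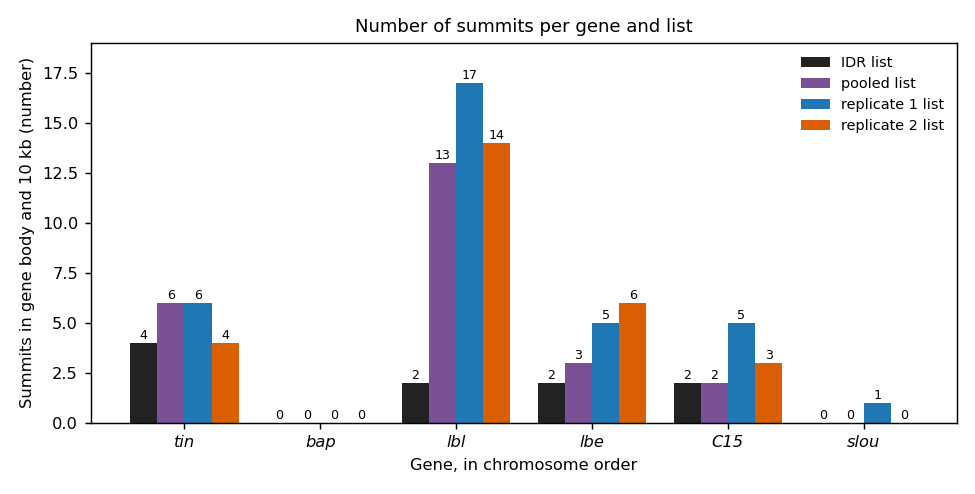
Number of summits in the gene body and 10 kb on either side (y axis) for each gene in chromosome order, with a bar for each of the 4 lists. lbl has 13 to 17 regions in the 3 longer lists but 2 IDR peaks, tin has 4 IDR peaks among 6 pooled regions, bap has 0 throughout, and slou has 1 replicate 1 region.

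For lbe, the tagged factor's own gene, the nearest IDR peak of its own lay upstream, in the intergenic stretch towards C15. This peak (chr3R:21452156-21452565) was 5824 bp from the lbe start site and had signal 135 and IDR rank 2813. Replicate 1 ranked it 1809 (signal 108) and replicate 2 ranked it 4991 (signal 42.1), with summits 13 and 90 bp from the IDR summit. It was thus placed higher by replicate 1. The gene itself lay in a stretch of 13.0 kb without a summit in any list, from position 21439315 to 21452271, which held 0 unknown bases and 11.7% repeat-masked bases against 20.1% over the chromosome arms. Stretches at least as long made up 2.08% of 85704 intervals between neighbouring summits and 48.9% of their length, so it is ordinary by length.

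lbl, which has the longest window, had the most regions of the 6 genes in the pooled and replicate lists (13, 17 and 14), while in the IDR list it had 2 and tin 4. Per 10 kb of window, lbl had 2.94, 3.85 and 3.17, against medians of 2.55, 2.78 and 2.5 over all protein-coding genes. It had 0.453 IDR peaks per 10 kb, against 0.436. Its promoter peak (chr3R:21434201-21434610), 273 bp upstream of the lbl start site and also within 10 kb of lbe, had signal 133 and IDR rank 2886. Replicate 2 ranked the promoter 1201 (signal 86.8) and replicate 1 ranked it 8113 (signal 46.1). Another replicate 2 region there, with its summit at 21434518, ranked 6032 (signal 37.2). That summit was the mutual nearest of the replicate 1 summit, 87 bp away. By either replicate 2 region, the order of the replicates by rank was the reverse of that at the lbe upstream peak. The printed bases of the lbl promoter hold GAGAGA tracts to either side of the summit. They have 11 overlapping matches on both strands, the most among the IDR peaks of the windows. That number is reached at 10 of 4753 IDR summits on the chromosome arms (0.21%), a share given for a peak picked as the highest. GAGAGA is a word of GAGA factor, a chromatin protein of many fly promoters; whether that factor was bound was not measured.

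The other IDR peak of lbl lay in an intron, 14056 bp into the gene (chr3R:21419872-21420281, signal 125, IDR rank 3231). Its ranks were close in the replicates, 3470 in replicate 1 (signal 77.3) and 4701 in replicate 2 (signal 43.7), although the replicate 2 summit was 148 bp away. A further intron region, 17069 bp from the start site (chr3R:21416859-21417268), was the second strongest of lbl in replicate 2, at rank 1996 (signal 68.5). It had no replicate 1 summit within 200 bp, and its pooled counterpart ranked 7147. It was not in the IDR list. The peak upstream of C15 was, with rank 598 in replicate 1, no replicate 2 region and pooled rank 809.

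Besides the IDR peaks, 2 sites of the lbl introns had summits within 200 bp of each other in both replicates. At the first, the replicate 1 and replicate 2 summits were 4 bp apart, at 21426207 and 21426203, with ranks 8417 and 7589 and pooled rank 6501. It lay 12 bp beyond the end of the short lbl transcript lbl-RB, inside an intron of the longer ones. At the second, the summits were 21 bp apart, at 21428678 and 21428699, with ranks 9309 and 15468 and pooled rank 10666. Both sites were well positioned in the replicates, yet of middle rank.

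tin had the strongest binding of the cluster in every list. Its promoter peak (chr3R:21378603-21378897), with the summit 226 bp upstream of the start site, had IDR rank 167 and signal 491, rank 214 in replicate 1 (signal 285) and rank 124 in replicate 2 (signal 208). The replicate summits were 23 bp apart. Each replicate thus placed it near the top of its list, at 0.713% and 0.413% of the way down. An IDR summit within 500 bp of a start site was present at 21.5% of protein-coding genes and at 2 of the 6 members, tin and lbl. Over the 2995 genes with such a summit, the median position relative to the start site was -102 bp (negative is upstream), and 20.4% had it 200 bp or more upstream, as tin and lbl did.

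The remaining 3 IDR peaks in the tin window belonged by position to its upstream neighbour mod(mdg4), which encodes a family of BTB-domain chromatin proteins and is transcribed away from tin. The peak 1558 bp from the tin start site (chr3R:21377214-21377623, signal 171, rank 1738) was 18 bp from the mod(mdg4) start site. Replicate 1 ranked it 1188 and replicate 2 ranked it 6709. A weaker pair of replicate summits beside it, at 21377602 and 21377661, had ranks 11451 and 9866. A peak in an intron of mod(mdg4), 903 bp inside that gene (chr3R:21376293-21376702, signal 146, rank 2436), was the reverse, at 5552 in replicate 1 and 919 in replicate 2. The most distant, 4827 bp from tin (chr3R:21373945-21374354, signal 104, rank 4411), had rank 3348 in replicate 1 and no replicate 2 region. It also lay in a mod(mdg4) intron, but its nearest start sites, 575 bp away, were those of pre-mod(mdg4)-AA, pre-mod(mdg4)-N and pre-mod(mdg4)-O. Thus 1 of the 4 peaks in the tin window had tin as its nearest gene start. A window with 4 or more IDR peaks was found at 12.2% of protein-coding genes.

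Downstream of tin the lists were empty as far as lbl. bap was the one member without a region in any of the 4 lists, a state it shared with 8.93% of protein-coding genes. The summit at the tin promoter missed the edge of the bap window by 129 bp. The next summit downstream, at 21408431, was a replicate 1 region of rank 28249 beside lbl, 692 bp from the start site of CheB93b. From the tin promoter, at 21378774, to that region, 29.7 kb carried no summit. Stretches at least as long made up 0.681% of 85704 intervals between neighbouring summits, but 30.9% of the length of these intervals, so such a stretch is not rare by length. It held 0 unknown bases, and 13.0% of its bases were repeat-masked. tin is known to be controlled in part from a dorsal mesoderm enhancer downstream of the gene that answers to Dpp signalling; positions of known enhancers are not in the sources used here, so no overlap with them was computed, but any element between tin and bap lies in the empty stretch.

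slou was close to empty as well. Its only region was in replicate 1 (chr3R:21566717-21567106), 9730 bp upstream of the start site, with signal 16.9 and rank 28064 of 29999. It had no match in the other lists and lay nearer to CG15498. The stretch without a summit that holds slou ran for 45.4 kb, the longest at any member; stretches of at least that length made up 0.358% of the 85704 intervals and 23.2% of their length.

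C15 had peaks at a distance on both sides, and the replicates differed most there. The upstream peak (chr3R:21493502-21493911), 6279 bp from the start site, had signal 248 and IDR rank 810. It ranked 598 in replicate 1 (signal 185) and had no replicate 2 region within 200 bp. Of all IDR peaks on the chromosome arms, 4.33% lacked a replicate 2 region, as did 2 of the 9 here. The call at this peak therefore rests on replicate 1 and on the pooled list.

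The C15 promoter showed the opposite pattern. A replicate 2 region 275 bp upstream of the start site (chr3R:21499506-21499915) had rank 1363 and signal 82.6, and neither replicate 1, the pooled list nor the IDR list held a region there. Among the strongest regions of replicate 2, as many as there are IDR peaks, 3.96% had no pooled summit within 200 bp, and for replicate 1 the share was 4.57%. The 2 C15 regions also differed in composition: 72.1% of the 201 bases at the upstream peak were A or T, against 43.8% at the promoter region. Whether base composition had a part in the difference between the replicates was not tested.

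Downstream of C15 the replicate ranks were close to each other. The peak at chr3R:21520246-21520469 had signal 289 and IDR rank 579, with rank 597 in replicate 1 (signal 186) and 772 in replicate 2 (signal 104). It was the second strongest IDR peak in the windows. Its summit lay 549 bp from the start site of the next gene, sp3, and 20393 bp from that of C15. By position it is a peak at sp3.

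**Figure D3:**
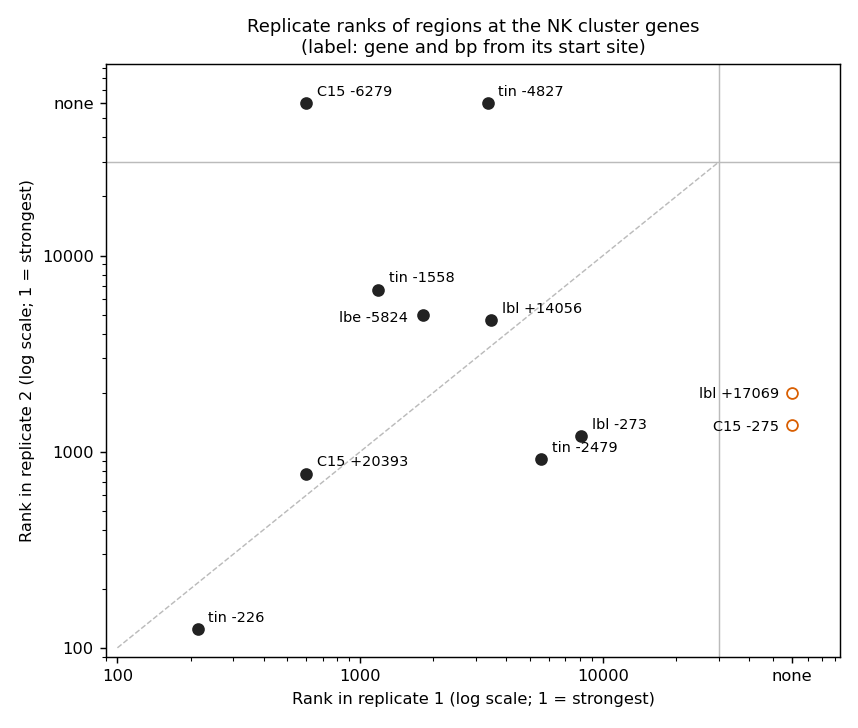
Rank in replicate 1 (x axis) against rank in replicate 2 (y axis), both on log scales with 1 as the strongest. Filled points are the 9 IDR peaks. Open points are replicate 2 regions within the first 4782 ranks that had neither a replicate 1 region nor an IDR peak. The mark "none" means no summit within 200 bp, and the dashed line marks equal ranks. Labels give the gene and the distance in bp from its start site. The tin promoter and the peak downstream of C15 sit near the line, and 2 peaks have no replicate 2 region.

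Over the 9 IDR peaks, 7 had a summit within 200 bp in both replicate lists, against 94.6% of all IDR peaks on the chromosome arms. Of these peaks, 3 of 9 ranked within the first 4782 in each replicate, against 59.2% of all IDR peaks. They were the tin promoter, the lbl intron and the peak downstream of C15. The 9 peaks are too few to set against these shares. With a limit 2 times as wide, 7 of 9 passed. Each replicate contributed 7 regions of the windows to its 4782 strongest, from 30 in replicate 1 and 22 in replicate 2. Over each full list the strongest are 4782 of 29999. Mutual nearest summits within 200 bp joined 10 pairs of regions across the replicates. For the wider limit and for the pairs, the share over all regions was not computed.

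Base composition followed the replicates in these windows as it did in the full lists. The median share of A and T around the summit was 66.7% over the 30 replicate 1 regions and 54.7% over the 22 replicate 2 regions, where the full lists had 64.7% and 59.2%. GAGAGA lay at 8 of the 22 replicate 2 regions and 4 of the 30 replicate 1 regions, where the full lists have it at 11.8% and 9.43%. TAATTA lay at 3 and 7 of them, against 13.0% and 17.9% of the full lists. Overlapping regions share bases, so these are counts of regions and not of separate sites. All 8 replicate 2 regions with GAGAGA were in the lbl window, which held 14 of the 22. Those of replicate 1 were in the windows of tin, lbl and C15. Outside the lbl window, A and T ranged from 43.8% to 73.6% in replicate 2 and from 46.3% to 73.1% in replicate 1. The difference in composition is thus not shown for the cluster apart from lbl. Over the IDR peaks, A and T ranged from 46.8% at the lbl promoter to 72.1% upstream of C15, with a median of 66.7% against 64.2% over all IDR peaks. The lbl promoter stood at the low end, with 2.69% of IDR peaks below it.

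**Figure D4:**
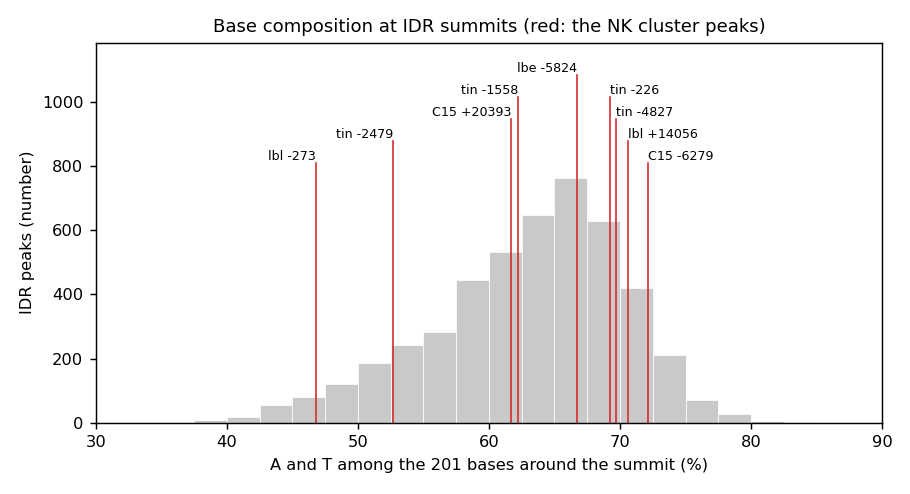
Number of IDR peaks on the chromosome arms (y axis) by the share of A and T in the 201 bases around the summit (x axis), with a red line for each of the 9 peaks in the windows, labelled by gene and by bp from its start site. The lbl promoter, at 46.8%, and the mod(mdg4) intron peak, at 52.7%, lie below the bulk, and the peak upstream of C15, at 72.1%, lies above it.

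Most of the words searched lay at few or none of the 9 IDR summits. TAATTA, the full homeodomain palindrome, lay at 0 of 9, where 15.6% of all IDR summits hold it; 9 peaks are too few to set against that share. TAACTA lay at 1 of 9 (the peak at the mod(mdg4) start site) against 11.4%, AGATAA, a word of GATA factors, at 1 (upstream of lbe) against 13.3%, and GAGAGA at 2 against 15%. TCAAGTG (3.6% of all IDR summits), a word of NK factors such as Tin, was at 0 of 9, as were the E-box CAGCTG (11%) and the Zelda word CAGGTA (4.08%). The shorter core TAAT, on either strand, had 5 matches each at the tin promoter, in the lbl intron and upstream of C15, a number that 27.9% of IDR summits reach. It had 3 matches upstream of lbe and at the most distant peak of the tin window, and 2 at the lbl promoter and at the peak beside sp3. The peak at the mod(mdg4) start site had 1 and that in the mod(mdg4) intron 0. The median over the 9 peaks was 3, equal to that over all IDR summits.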

How the data were processed

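Whole-embryo ChIP-seq of Lbe-GFP was available as narrowPeak lists in dm6, which the authors made from 2 replicates, per the provenance text deposited with the samples: each replicate list was called alone, the pooled list on both, and the IDR list derived from all 3. The aligner and peak caller used were not given in the sources used here, and the control named in the labels was left out. For each region the authors deposited a signal, on a scale not stated, a −log10 q-value (not used for ranking) and a summit offset. The dm3 lists were not used.

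Regions were ranked by signal within each list. Genes, transcription start sites and overlaps came from Ensembl release 115 (BDGP6.54), whose coordinates for the 6 genes equal those of RefSeq; bases came from the release 6 genome. Summits within 200 bp counted as matched, taking the strongest match; pairs of replicate regions are mutual nearest summits. The background share is over 13945 protein-coding genes or the 4753 IDR peaks on the chromosome arms. There were 7 words searched within 100 bp of the summit on either strand. The planned search was for presence alone, and counts of TAAT and GAGAGA matches were added after the data were seen. Overlapping matches were counted. GAGAGA and TAAT are not independent of base composition.

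The genes, words and tests were chosen with earlier results of these data known. All 6 genes, every IDR peak in a window, each gene's strongest region per list, and sites found in both replicates are named; the lbl intron region and the C15 promoter region of replicate 2 were singled out after their values were seen. Window counts, matching and word searches were tested on planted positions and returned the planted answers. Analyses used Python 3.11.15, pandas 2.3.3 and numpy 2.4.6. Alternatives were other windows, match rules, thresholds and each replicate alone. No statistical test across conditions was possible.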

Additional observations from a re-analysis of the deposited data

How the results depend on the processing

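Counts for the windows were recomputed under 39 alternatives, and 27 stayed within 1.5 times the reported value. With the gene body alone, 1 member had an IDR peak, and there were 1 IDR peak, 11 pooled regions, 12 replicate 1 regions, 9 replicate 2 regions and 3 sites in both replicate lists. With a window of 5 kb, 2 members had an IDR peak (tin and lbl). With only IDR peaks above the median signal, 4 peaks at 2 members (tin and C15) were left. With 2 times as many strongest regions per replicate, 7 IDR peaks passed in place of 3. TAATTA lay in 3 IDR peaks when the whole region was searched, against 0 within 100 bp of the summit. Counting only peaks whose nearest protein-coding start site is that of a member, an alternative chosen after the data were seen, left 4 peaks. With either replicate left out, using the 4782 strongest regions of the other, 4 members and 7 regions were counted, and the best rank was 124 to 214. The cause of these moves was not tested. No paired analysis was possible because there is 1 group. The lists give no read depth, so a window without a region is not shown to be unbound.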

Other observations

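The 33.4 kb between the windows of lbe and C15 (chr3R:21456538-21489985) held 0 IDR peaks, and the replicates filled it with different regions. Replicate 2 had 9 regions, with ranks from 4292 to 28618, all in the part nearer to lbe. Replicate 1 had 4, and no replicate 1 region had a replicate 2 summit within 200 bp. The strongest of replicate 1 was 182 bp from the start site of Fancm, a DNA repair helicase gene (chr3R:21481948-21482337, rank 860, signal 156). Another lay downstream of Fancm (chr3R:21487917-21488040, rank 1259, signal 130). Neither had a counterpart in the pooled list, as was the case for the replicate 2 region at the C15 promoter. The cause was not tested.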
